A study of Rattus norvegicus with 24 samples.

Results

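Of the serotonin receptor genes, 6 were followed through single sensory neurons of rat dorsal root ganglia (DRG): Htr1b, Htr1d, Htr1f, Htr3a, Htr3b and Htr4, out of 32881 genes that all count files share. They were taken by name, whatever their values: the first trio encodes the receptors that triptans act on, and the others encode the channel-forming receptors and a receptor that raises cAMP. Values were read from cells that passed the quality limits, 1433 of 1464. All animals were male Sprague-Dawley rats, and the neurons came from lumbar DRG, dissociated and picked by mouth pipette. In spared nerve crush (SNC) the tibial and common peroneal branches of the sciatic nerve were crushed and the sural branch was left whole, whereas in sham rats the nerve was only exposed. Neurons traced with dyes injected into those branches came from 4 sham samples (215 cells), 4 samples at 1 day after SNC (238 cells), 3 at 3 days (237 cells) and 5 at 7 days (240 cells), and are called dye-labelled here. A further 7 libraries (503 cells) are described as sham at 0, 1, 3 or 7 days, with no count of cells per dye, and are called the added sham libraries. SNC spares 1 branch, and the names of the cells carry no dye, so crushed and uncrushed neurons are pooled in every value.

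Serotonin reaches sensory nerve endings from platelets and mast cells after tissue damage, and reaches their central endings from brainstem neurons. The receptors of Htr1b, Htr1d and Htr1f couple to inhibitory G proteins, lower cAMP and reduce release of transmitter and of peptides such as CGRP, and triptans, drugs for migraine, activate them. The products of Htr3a and Htr3b are subunits of the only serotonin receptor that is an ion channel. The A subunit forms channels alone, the B subunit only together with A, and opening of the channel depolarizes the neuron. The receptor of Htr4 couples to the stimulatory G protein and raises cAMP.

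The sum of unique molecular identifiers (UMIs, counts of captured transcripts) per sample ran from 4002564 to 28976434 in dye-labelled samples and from 14004381 to 40733436 in the added libraries. The median cell held 239292 UMIs in the former and 340145 in the latter. Levels are given as CPM, UMIs scaled by the total of a sample or of the cells of 1 cluster in a sample, and no level is compared between genes, since only 3′ ends were captured. Between samples of 1 group, chi-square over its degrees of freedom was 10.1 to 151, well above sampling noise, no cell had the same counts as another, and no cell name recurred across libraries. Reverse transcription was done in an earlier year for 3 sham samples and 3 samples at 7 days, and in a later year for the rest, including all samples at 1 and 3 days, so that within a year those have a single sham sample to stand against and only 7 days can be tested. The dye-labelled sham neurons carried transcripts of injury genes: Gal stood at 1198 CPM, Sprr1a at 152 and Atf3 at 580, against 7.36, 0.0319 and 154 in the added libraries. Of 7 injury genes tested none passed the test between SNC and sham at any time (adjusted p of edgeR at 0.05). At each time 0 of all 14239 genes tested passed (0%), so this count is not particular to the injury genes. Libraries S1 and S2 of the added set held at most 3 cells of each of the 2 largest added clusters, so results that rest on them are also given without them.

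Htr1b and Htr1d were both highest in dye-labelled neurons named as neurofilament type from marker lists. The windows around their first base are therefore printed from RefSeq (assembly GRCr8, not the Rnor_6.0 build of the counts), 300 bases each. A window was found for 4 of the 6 genes (Htr1b, Htr1d, Htr1f and Htr3b). Capitals mark matches on either strand to CCAAT in Htr1b and to GGGCGG or CANNTG in Htr1d.
Htr1b, chr8:91414766-91415065, minus strand: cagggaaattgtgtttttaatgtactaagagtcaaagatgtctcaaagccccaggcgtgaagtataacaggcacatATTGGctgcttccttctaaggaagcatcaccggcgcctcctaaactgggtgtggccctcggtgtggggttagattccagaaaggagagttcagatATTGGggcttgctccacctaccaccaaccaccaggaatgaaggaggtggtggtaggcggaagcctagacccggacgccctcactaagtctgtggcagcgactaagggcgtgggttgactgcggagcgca
Htr1d, chr5:153939485-153939784, plus strand: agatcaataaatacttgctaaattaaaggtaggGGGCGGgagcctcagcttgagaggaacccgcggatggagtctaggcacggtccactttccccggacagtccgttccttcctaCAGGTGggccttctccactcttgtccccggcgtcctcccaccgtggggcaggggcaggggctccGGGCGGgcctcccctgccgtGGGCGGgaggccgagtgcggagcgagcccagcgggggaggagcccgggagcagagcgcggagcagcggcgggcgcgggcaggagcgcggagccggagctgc
The window of Htr1b was 53.7% G or C and held CCAAT 2 times, read on the printed strand as ATTGG. That of Htr1d was 69.3% G or C and held GGGCGG 3 times. Of 27457 windows of the same length, 37.7% held CCAAT, 34.9% held GGGCGG, 71.6% held CANNTG and 14.3% held TATAAA. These letters are a description of the windows, and no binding was measured.

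The neurons fell into 10 dye-labelled clusters and 7 added clusters, made apart and without serotonin receptor genes among the variable genes. Clusters were named only from marker lists: peptidergic (PEP1-, PEP2- and PEP3-like), non-peptidergic (NP-like), somatostatin (SST-like), neurofilament (NF-like), TRPM8-like and low-threshold (CLTMR-like). The 3 PEP lists came from the study, which chose them on these cells, so the PEP names are not independent of the data. The PEP2 list also holds the injury genes Gal and Sprr1a. A pair of dye-labelled clusters were NF-like, 1 led by Shox2 and Pvalb (90 cells, 9 of 12 markers of the list high) and 1 by Kcnv1 and S100a16 (87 cells, 4 of 12). The name of the Kcnv1 cluster is thus the weaker of the pair, and its leading genes Kcnv1, S100a16 and Nmb are themselves on the list. The added NF-like cluster was led by Shox2 and Hs3st2 (97 cells, 8 of 12). The NP-like cluster of dye-labelled cells was led by Chrna3, Il7r and Mrgprb4, with Mrgprd near 0, and that of the added libraries by Iapp and Slc16a12, with no leading gene in common. An unnamed added cluster led by Rbp2 and Otof shared the leading genes Mrgprb4, Rbp2 and Casr with the dye-labelled NP-like cluster. The dye-labelled SST-like class pools a cluster led by Prg4 and a cluster led by Sst and Il31ra, whereas the added SST-like cluster was led by Ifitm1, Nppb and Sst. Comparisons between clusters are descriptions with no test, and their means take in a sample only where it had 3 or more cells of the cluster.

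Htr1b, which encodes an inhibitory receptor at nerve terminals, was highest in the NF-like neurons of the Kcnv1 cluster, at 5.10 ± 2.90 CPM (SD, n = 15 samples), with a UMI in 63.2% of their cells (Wilson 95% interval 52.7 to 72.6). It stood at 3.32 ± 3.25 CPM (n = 12) in the Shox2 cluster and at 1.72 ± 1.43 CPM (n = 16) in PEP1-like neurons. The first and the second of these lay within 1 SD of each other. Together the NF-like clusters held 38.3% and 25.2% of the Htr1b UMIs of dye-labelled cells, with 9.35% and 9.68% of the cells. Their cells were deeper, with medians of 458054 and 525591 UMIs against 239292 over all dye-labelled cells. Shares of UMIs and of cells, unlike CPM, are not corrected for this. Htr1b had no UMI in 57 SST-like cells led by Sst and Il31ra, which allows a share of up to 5.26% (intervals and limits cover counting error only). In the added libraries 90.7% of its UMIs lay in 1 unnamed cluster led by Kcng1 and Insrr, at 2.95 CPM on average (0 to 7.32, n = 6), and that cluster also carried glial markers, 6 of 7 on the list. The leading genes of that cluster included Kcnv1 and Chp2, shared with the dye-labelled Kcnv1 cluster. They also included Kcng1 and Cd9, shared with PEP3-like neurons, and Kit, shared with PEP1-like neurons. The added NF-like cluster had 0.577 ± 0.343 CPM (n = 5).

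Htr1d, the closest relative of Htr1b among the triptan receptors, followed the Shox2 neurons. In the dye-labelled Shox2 cluster it stood at 5.53 ± 3.56 CPM (n = 12), between 0.967 and 13.7, and 45.6% of the cells had a UMI (Wilson 95% interval 35.7 to 55.8). The Kcnv1 cluster had 1.17 ± 2.75 CPM (n = 15) and 12.6% of cells. These clusters held 79.5% and 17.2% of all Htr1d UMIs of dye-labelled cells. In the added NF-like cluster the level was 28.5 ± 7.23 CPM (n = 5), from 20.8 to 37.5, with a UMI in 87.6% of cells (79.6 to 92.8). The Kcng1 cluster followed with 3.70 ± 2.02 CPM (n = 6), with a highest value of 7.34, so that the clusters did not overlap. Among 186 PEP1-like cells none had an Htr1d UMI, which allows up to 1.61%, and none did among 69 NP-like cells, which allows up to 4.35%.

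Htr1f, the third triptan receptor, was spread over more neuron types. It was highest in the dye-labelled Shox2 cluster at 8.62 ± 4.50 CPM (n = 12; 58.9% of cells), then in PEP2-like neurons at 5.99 ± 3.29 (n = 16; 35.3%) and in the SST-like cluster led by Prg4 at 4.46 ± 1.98 (n = 12; 38.9%). These 3 overlapped within their SDs, and every dye-labelled cluster had some Htr1f. In the added libraries the order was another: the NP-like cluster led by Iapp stood at 5.76 ± 4.27 CPM (n = 7; 48.1% of cells) and an unnamed cluster led by Cav1 and Ntsr1 at 2.90 ± 2.53 (n = 7). Their NF-like cluster had 0.391 CPM.

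Htr3a, the subunit every channel of this kind needs, was found in most types but at very different levels. In dye-labelled cells it was highest in NP-like neurons, at 236 ± 53.8 CPM (n = 8), from 175 to 315, and in the SST-like cluster led by Sst and Il31ra, at 190 ± 54.8 CPM (n = 8), from 67.3 to 242. These neighbours did not differ beyond their spread. Together they held 33.7% and 27.2% of the Htr3a UMIs. The NF-like clusters stood at 45.5 ± 45.3 CPM (n = 12; Shox2) and 41.1 ± 41.1 CPM (n = 15; Kcnv1), with SDs as large as their means. The PEP1-, PEP2- and PEP3-like clusters had 2.28 ± 2.13, 10.8 ± 17.6 and 3.99 ± 4.66 CPM, with a UMI in 33.3%, 24.5% and 42.1% of cells. In the added libraries no cluster was this low: the level ran from 167 ± 34.1 CPM (n = 5) in NF-like neurons to 378 ± 71.0 CPM (n = 4) in CLTMR-like neurons, with a UMI in 97.8% to 100% of the cells of every cluster.

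Htr3b, the partner subunit, had the same leading clusters in dye-labelled cells: NP-like at 31.4 ± 16.1 CPM (n = 8; 82.6% of cells) and SST-like led by Sst at 21.4 ± 6.28 (n = 8; 87.7%). The NF-like clusters followed at 12.4 ± 17.4 and 9.63 ± 13.7 CPM, and the 3 PEP-like clusters were each at 0.74 CPM or less. In the added libraries the order turned, with 44.1 ± 31.9 CPM (n = 5) in NF-like neurons, 24.1 ± 24.5 (n = 6) in the Kcng1 cluster and 9.81 ± 6.36 (n = 7) in NP-like neurons, although the SDs of the first and the second overlap.

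Htr4, which raises cAMP, was highest in dye-labelled NP-like neurons at 24.1 ± 13.4 CPM (n = 8; 73.9% of cells) and PEP2-like neurons at 22.2 ± 8.24 (n = 16; 65.2%), which did not differ beyond their spread. The SST-like cluster led by Prg4 followed at 15.8 ± 7.58 CPM (n = 12; 76.4%). It was low in the Shox2 cluster, at 0.568 CPM, where Htr1d and Htr1f were highest, and in PEP3-like neurons, at 0.628 CPM. In the added libraries NP-like neurons had 78.2 ± 18.4 CPM (n = 7), from 61.1 to 108, the Cav1 cluster 40.7 ± 5.01 (n = 7) and NF-like neurons 1.23 ± 1.06 (n = 5). The NP-like and NF-like samples of the added set did not overlap.

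**Figure D1:**
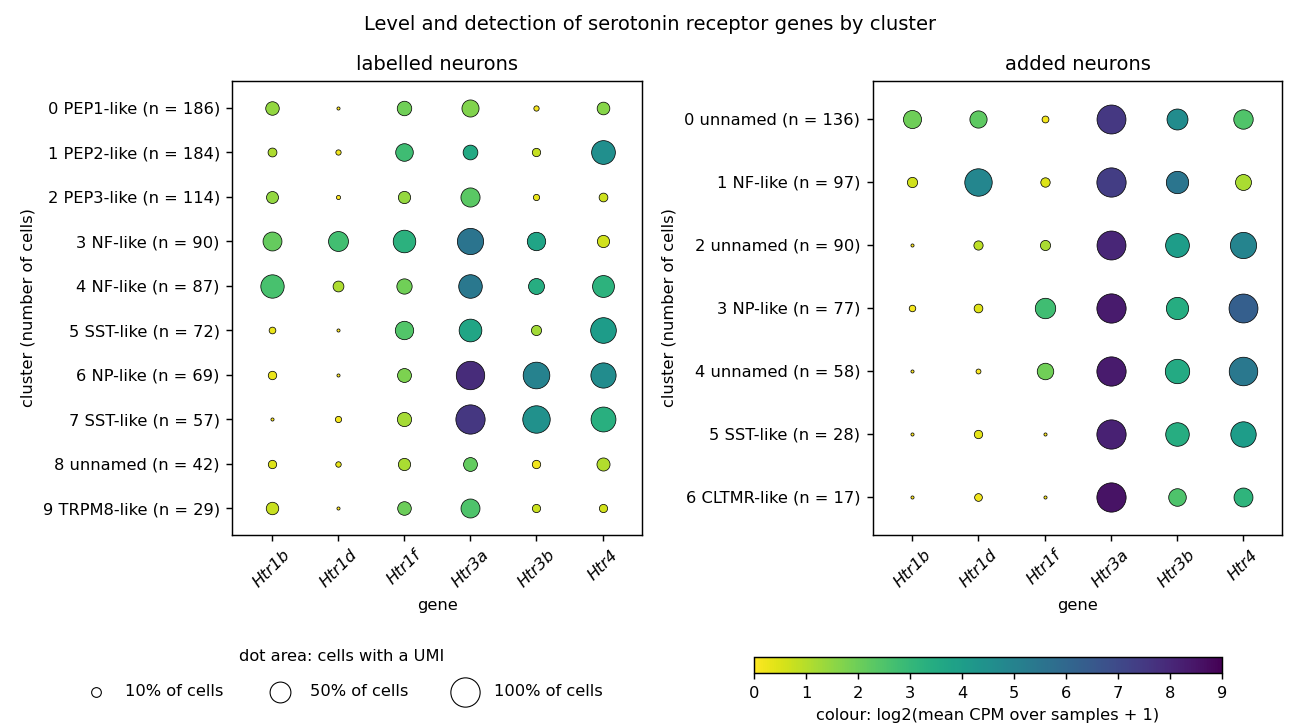
Clusters are rows and the 6 receptor genes are columns, with dye-labelled neurons (labelled) on the left and added libraries on the right. Dot area is the share of cells with a UMI and colour is log2(mean CPM over samples + 1): Htr1d is seen mainly in NF-like rows 3 and 4 on the left, its dot is largest in the added NF-like row (87.6% of cells), and Htr3a is dark in rows 6 and 7 on the left and in every added row.

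Single neurons often held several of the genes. A neuron counts as holding a gene when it has at least 1 UMI, which depends on depth. In 206 cells (14.4%) none of the 6 was seen and in 3 cells all 6 were, and the dye-labelled set had no receptor in 202 cells (21.7%) against 4 cells (0.795%) of the added set. Of the triptan receptor genes, 787 cells (54.9%) held none, 500 (34.9%) held 1, 132 (9.21%) held 2 and 14 (0.977%) held all 3.

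The channel subunits sat together: of 493 cells with Htr3b, 477 (96.8%) also had Htr3a, 185 of 201 among dye-labelled cells and 292 of 292 (100%) among added cells. Htr3a was held by 469 of 930 dye-labelled cells and by 498 of 503 added cells, so the share in the added set was all but fixed. Among cells without Htr3a, nearly all of them dye-labelled, 3.43% had Htr3b. With each cell thinned to 20000 UMIs the share was 94.3%, and with at least 2 UMIs required it was 99.5%.

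Htr1b and Htr1d overlapped less. Both were seen in 53 cells, 21.7% of the 244 Htr1b cells and 25.4% of the 209 Htr1d cells, against 13.1% with Htr1d among cells without Htr1b. The share was higher in Htr1b cells in 15 of 20 samples, and in the added libraries 50.8% of 65 Htr1b cells had Htr1d, higher in 5 of 5. With cells thinned to 20000 UMIs, only 3.03% of Htr1b cells had Htr1d and 2.0% of Htr1d cells had Htr1b. At that depth 1.55% of dye-labelled and 7.71% of added cells had an Htr1d UMI, and 2.31% and 2.18% an Htr1b UMI (means over samples). With so few cells holding either gene, the thinned shares cannot decide whether the excess remains at equal depth. With at least 2 UMIs required, 17.2% of Htr1b cells had Htr1d and 18.2% of Htr1d cells had Htr1b. Htr1f and Htr4 met in 208 cells: 58.9% of the 353 Htr1f cells had Htr4 against 45.5% of the others, higher in 20 of 23 samples. In dye-labelled cells alone, thinned to 20000 UMIs, the shares were 8.06% against 12.4%. Each dye-labelled group then had 13 to 18 Htr1f cells, too few to settle the order. Of the Htr1d cells 38.8% had Htr4, against 50.5% of cells without Htr1d.

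**Figure D2:**
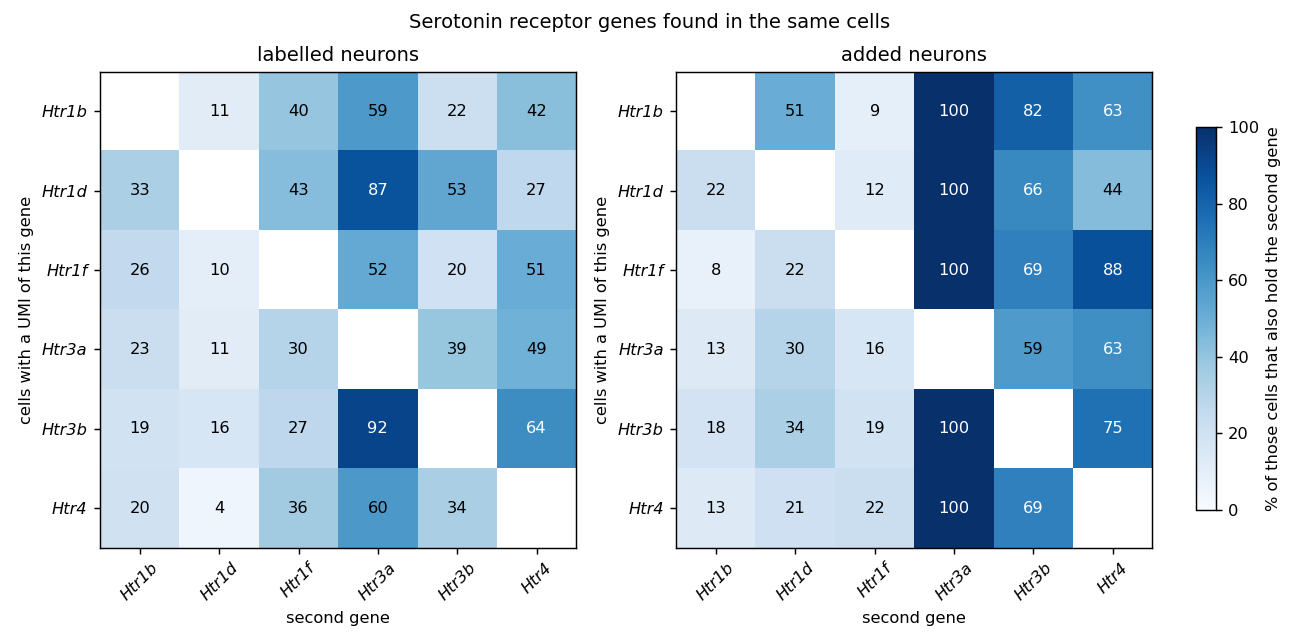
Percent of the cells holding the gene of the row (at least 1 UMI) that also hold the gene of the column, for dye-labelled (labelled) and added neurons. In the added panel the Htr3b row reaches 100% in the Htr3a column, where 498 of 503 added cells held Htr3a, and the Htr1b row reaches 50.8% in the Htr1d column.

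Genes that mark sensory neuron types were compared between cells with and without a receptor UMI, within samples holding at least 3 cells of both kinds. Cells with Htr1d had more Nefh, the heavy neurofilament of myelinated neurons, at 1130 ± 248 against 673 ± 52.2 CPM in dye-labelled cells (higher in 10 of 10 samples) and higher in 5 of 5 added libraries. They had more Ntrk3, the receptor for neurotrophin-3, at 125 against 36.5 CPM (10 of 10). Calca, the CGRP gene, stood at 499 ± 327 against 1584 ± 541 CPM, higher in 0 of 10 samples and in 0 of 5 added libraries. Trpv1, the capsaicin channel, stood at 15.7 against 73.7 CPM. Htr1d cells thus had the markers of large neurons above their neighbours and the peptide gene below them in each sample.

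Htr1b cells leaned the same way with less of a gap: Nefh was 942 against 677 CPM (higher in 13 of 15 samples), Ntrk3 80.4 against 45.2 (13 of 15), and Calca 1167 ± 506 against 1375 ± 515 (higher in 3 of 15). Tac1, the substance P gene, was 492 against 897 CPM in them (higher in 1 of 15). In the added libraries Calca was higher in Htr1b cells in 4 of 5, at 1380 against 925 CPM. Cells with Htr4 had more P2rx3, an ATP-gated channel of nociceptors, at 310 ± 56.3 against 160 ± 49.1 CPM (higher in 16 of 16 dye-labelled samples), and 470 against 211 CPM in the added set (7 of 7). Cells with Htr1f differed between the sets: P2rx3 was higher in 8 of 16 dye-labelled samples and in 7 of 7 added libraries, and Trpv1 in 2 of 16 and 7 of 7. Depth differs between cells with and without a UMI, and its part in these differences was not tested.

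Over the 17 clusters, the genes whose log2(CPM + 1) tracked each receptor most closely were found by Pearson's r, as a description over clusters that share libraries and depth. For Htr1b they were Ajap1 (r = 0.898), Rgs20 (0.892) and Ranbp6 (0.888). For Htr1d they were Esrrg (0.970), Tmem178a (0.970) and Rnf128 (0.968), and for Htr1f Laptm4a (0.867), Ubxn8 (0.860) and Lrrfip1 (0.849). For Htr3a they were Ano3 (0.966), AABR07030603.2 (0.947) and Gabbr2 (0.944), and for Htr3b Prmt5 (0.912), Scfd2 (0.908) and Ccdc102a (0.897). For Htr4 they were P2rx3 (0.917), Gna14 (0.905) and Map3k14 (0.904). Between the members, r was 0.83 for Htr3a with Htr3b and 0.271 for Htr1b with Htr1d.

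Whether nerve crush moved the receptors was asked over samples, with UMIs summed per DRG sample and edgeR's quasi-likelihood test over 14239 genes. None of the 6 passed the test at 1, 3 or 7 days against sham, where 0% of all genes were called at each time (an adjusted p of 0.05). At an unadjusted p of 0.05, 1243, 594 and 476 genes passed at 1, 3 and 7 days, and DESeq2 called 17, 1 and 0. The labels say that at least 5 rats were harvested per time point but not which rats gave a sample, so p-values measure the spread between these samples. In summed samples fewer cells of a type and less RNA per cell cannot be told apart.

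Htr3a stood at 93.5, 89.1, 43.6 and 3.25 CPM in the sham samples 4, 18, 10 and Xin. At 1 day it was 77.5, 52.5, 29.9 and 24.6 CPM, at 3 days 63.3, 55.2 and 48.9, and at 7 days 71.0, 60.5, 28.8, 15.5 and 10.5. The groups overlapped, and the lowest sham sample, Xin, held 24 cells, of which 1 was NF-like and none was NP-like. The spread of sham (57.4 ± 42.5 CPM, n = 4) was the widest of the dye-labelled groups for this gene. The log2 differences from sham were -0.37, -0.05 and -0.67 at 1, 3 and 7 days (SE 0.656 at 1 day, adjusted p = 0.899 by edgeR). Within the samples of the earlier year the difference at 7 days was -1.41 (SE 0.856, adjusted p = 0.997 by edgeR, 3 against 3). In this earlier year 2 sham samples shared their date of reverse transcription with a sample at 7 days. Htr3a was 93.5 CPM in sham sample 4 and 10.5 in its partner at 7 days, and 43.6 CPM in sham sample 10 and 15.5 in its partner. In both pairs the value at 7 days was the lower, and with the date as a block in the fit the difference at 7 days was -2.31 (adjusted p = 1.00 by edgeR).

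Htr1d, in the fit of summed samples, had the largest difference of the 6 from sham. It was 4.63, 1.02, 0.748 and 0 CPM in the sham samples, 0.768, 0.600, 0.432 and 0 at 1 day, 1.11, 1.09 and 1.03 at 3 days, and 5.70, 1.76, 0.478, 0.323 and 0 at 7 days. The highest of these, sample 19-1, held by its labels 20 directly and 4 indirectly injured cells, and the sample at 0, 19-2, held 4 and 20, and the part of this in the values was not tested. All 4 samples at 1 day were below 1 CPM, whereas sham and 7 days each held 1 sample far above the rest. The difference was -1.85 at 1 day on the log2 scale (SE 1.12, adjusted p = 0.646 by edgeR), -0.62 at 3 days and -0.06 at 7 days. Without sham sample 4 it was -0.59 at 1 day (adjusted p = 0.907 by edgeR). With equal weight for each cell, the difference of Htr1d at 1 day was -0.49 on the log2(CPM + 1) scale, and that of Htr1f was larger, at -0.79 at 1 day and -0.74 at 7 days. Between 7 days and 1 day the difference of Htr1d in the fit of summed samples was +1.79 (SE 1.08, adjusted p = 0.779 by edgeR).

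The remaining genes stayed nearer to sham. Htr1b averaged 1.92 ± 0.812 CPM in sham (n = 4), 1.88 ± 0.794 at 1 day (n = 4), 1.81 ± 0.388 at 3 days (n = 3) and 2.14 ± 1.28 at 7 days (n = 5). Htr1f averaged 3.89 ± 1.99, 2.85 ± 0.669, 4.94 ± 1.29 and 3.34 ± 2.04 CPM in the same order. Each of these ranges overlapped that of sham. Htr3b averaged 9.00 ± 7.98, 8.34 ± 9.35, 10.3 ± 3.94 and 6.19 ± 4.24 CPM, and Htr4 8.81 (7.53 to 9.99 over the 4 sham samples), 7.81 ± 2.85, 7.13 ± 0.822 and 8.04 ± 3.53. The median difference of the 6 genes from sham was -0.302 at 1 day, -0.0926 at 3 days and -0.219 at 7 days, beside -0.00587, -0.0049 and -0.00612 over all genes.

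**Figure D3:**
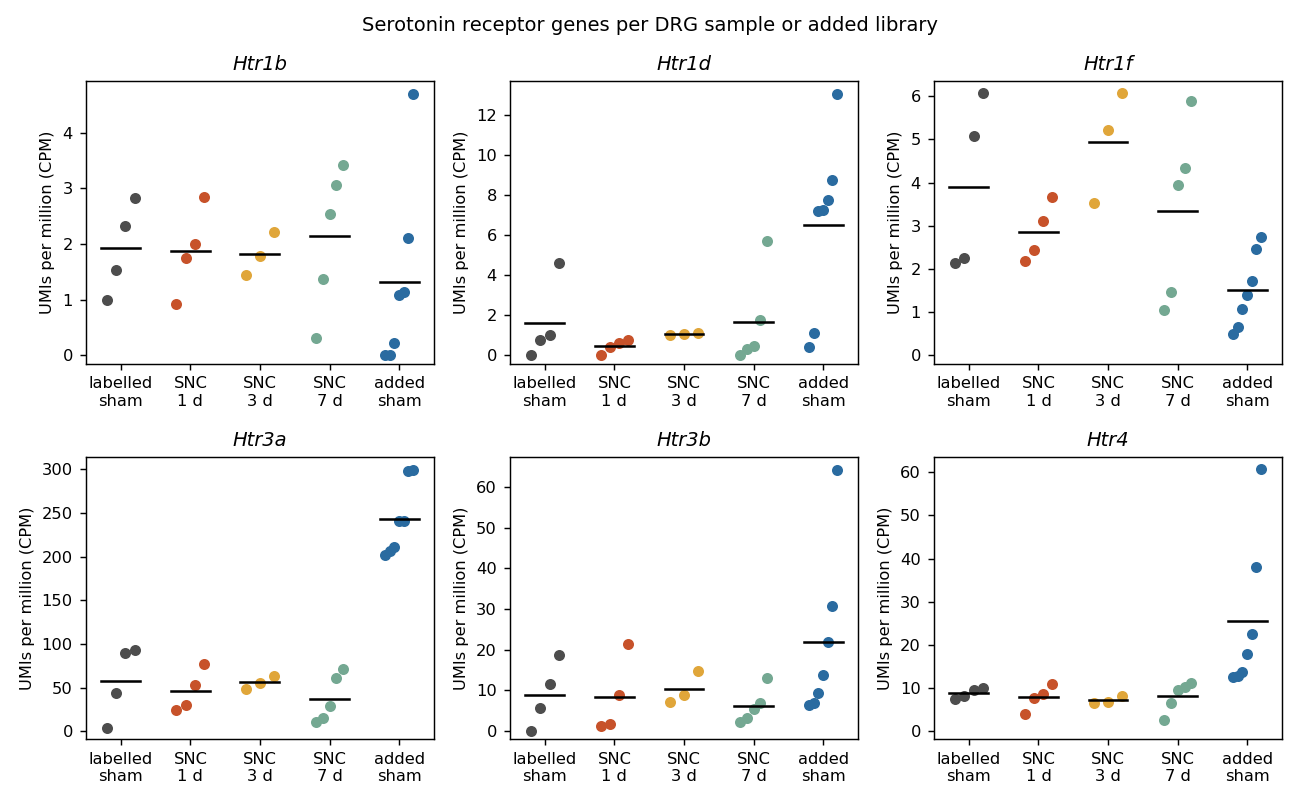
Level of each receptor gene (CPM, linear axes from 0, each gene on its own scale), 1 point per sample or library and a black line at the group mean, for dye-labelled sham (labelled sham), 1, 3 and 7 days after SNC and added sham. The SNC points overlap the sham points for all 6 genes, and for Htr3a the 7 added libraries, from 201 CPM, lie above all dye-labelled sham samples.

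**Figure D4:**
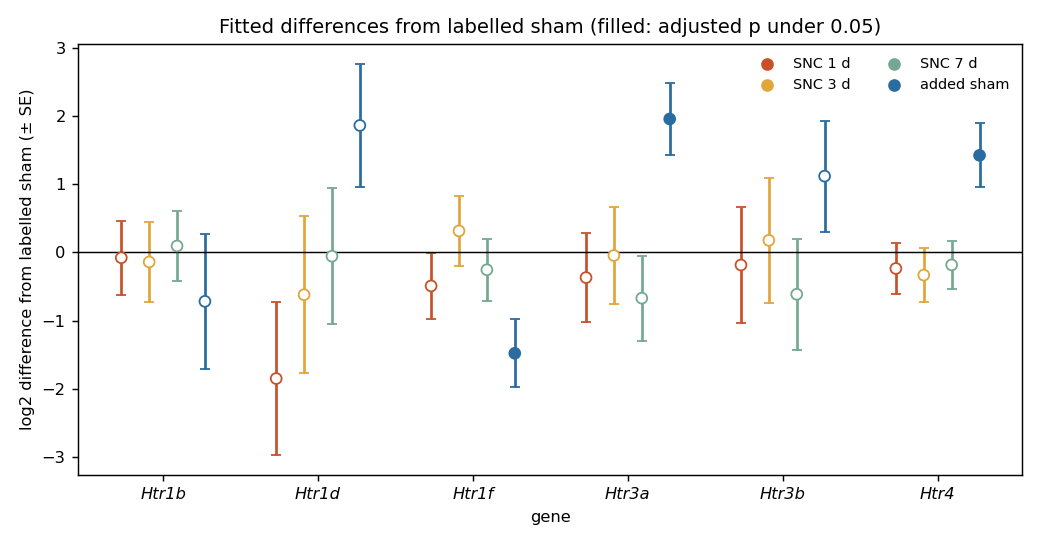
Log2 difference of each receptor gene from dye-labelled sham, bars showing the standard error, at 1, 3 and 7 days after SNC and in added sham. Filled points passed the test (adjusted p under 0.05): Htr1f (-1.48), Htr3a (1.96) and Htr4 (1.42), all of added sham.

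The same question was asked within the named neuron class where each gene was highest, with clusters of 1 name pooled. For Htr1f the highest class was PEP2-like (5.99 CPM), since the pooled NF-like clusters had 5.38 CPM. Its highest single cluster, led by Shox2, was not tested alone. In NF-like neurons (0 of 13010 genes called, 0%, at each time, with 551 at an unadjusted p under 0.05 at 1 day and 1 call by DESeq2) Htr1d was 10.7, 2.53 and 2.32 CPM in the sham samples with at least 3 such cells, and 1.70, 1.61, 1.26 and 0 at 1 day. Each of these 4 samples lay below each sham sample, but how many other genes separate in this way is not given here. The class pools the Shox2 and Kcnv1 clusters, which held 79.5% and 17.2% of the Htr1d UMIs. The part of their mix in each sample was not tested. At 3 days Htr1d was 4.08, 4.02 and 3.01 CPM, inside the sham range. The difference at 1 day was -2.05 (SE 0.956, adjusted p = 0.957 by edgeR) and -1.02 without sham sample 4 (adjusted p = 1.00 by edgeR), and those at 3 and 7 days were -0.45 and -0.51. For Htr1b in NF-like neurons the differences were -0.56, -0.65 and -0.42.

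In PEP2-like neurons (0 of 10127 genes, 0%, with 667 at an unadjusted p under 0.05 at 1 day and 15 calls by DESeq2) Htr1f was 12.6, 5.72, 4.80 and 3.53 CPM in sham and 6.06, 3.79, 3.78 and 1.83 at 1 day, with differences of -0.78, -0.57 and +0.13 at 1, 3 and 7 days. The groups overlapped. In NP-like neurons only 1 day kept 3 samples on both sides (0 of 10566 genes, 0%, with 340 at an unadjusted p under 0.05 and 1 call by DESeq2). There Htr3a was 315, 298 and 175 CPM in sham and 278, 222 and 197 at 1 day, a difference of -0.13 (SE 0.239, adjusted p = 0.999 by edgeR). Htr3b differed by -0.75 and Htr4 by +0.64. Outside the planned classes, Htr3a in PEP2-like neurons was +3.55 at 1 day (SE 0.836, adjusted p = 0.265 by edgeR) and +0.48 and -0.34 at 3 and 7 days.

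The added sham libraries had higher Htr3a and Htr4 and lower Htr1f than the dye-labelled sham samples. Of 15791 genes, 6415 (40.6%) passed the test between the added and the dye-labelled sham libraries, 24.2% higher in the added set and 16.5% lower, and the median gene differed by 0.15 on the log2 scale. Of the receptors 3 of 6 passed, a share near that of all genes, and their median difference was 1.27. The kind of library and the way its cells were picked cannot be told apart. The dye-labelled sham set held the injury genes given above (7 of 7 tested were lower in the added set) and all 9 PEP2 markers at higher levels, and the part of these in the receptor differences was not tested. Gal and Sprr1a are on both of these lists. The summed glial marker level was 1025 to 2320 CPM in dye-labelled sham and 814 to 1353 in the added set, and that of immune markers was 7.99 to 34.8 and 4.71 to 17.1.

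For Htr3a the added libraries ran from a lowest 201 CPM, over a median of 241, to a highest 300 CPM, whereas the highest dye-labelled sham sample had 93.5 CPM. The groups did not overlap, and the difference was +1.96 (SE 0.532, adjusted p = 0.0109 by edgeR). After thinning to 20000 UMIs, 92.7 ± 3.69% of added cells (n = 7) and 22.5 ± 18.9% of dye-labelled sham cells (n = 4) had an Htr3a UMI.

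Htr4 had 60.7 and 38.1 CPM in libraries S2 and S1 and 12.5 to 22.5 CPM in the other 5, against 7.53 to 9.99 CPM in dye-labelled sham. The lowest added library was above the highest sham sample, and the difference was +1.42 (SE 0.469, adjusted p = 0.0278 by edgeR). Without S1 and S2 it was 0.65 (adjusted p = 0.0577 by edgeR), and leaving out any 1 of the 4 sham samples, or S1, also took it past 0.05 (adjusted p from 0.0502 to 0.0767). Htr1f averaged 1.51 ± 0.858 CPM in the added set (0.498 to 2.75) and 3.89 ± 1.99 in sham (2.15 to 6.07), with overlap at the edges. Its difference was -1.48 (SE 0.497, adjusted p = 0.0301 by edgeR), lost without sham sample 10 (adjusted p = 0.102) or sham sample 4 (0.0714), and without added library S3 (0.0519) or S5 (0.0562).

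Htr1d was 13.0, 8.76, 7.74, 7.28, 7.22, 1.14 and 0.442 CPM in the added libraries. The lowest pair, S1 and S2, held none of the NF-like cells in which it was highest. Its difference of +1.86 (SE 0.907, adjusted p = 0.117 by edgeR) did not pass, and without S1 and S2 it was 2.23 (adjusted p = 0.0171). It also passed without sham sample 4 (3.04, adjusted p = 0.0338). Htr3b differed by +1.12 (adjusted p = 0.290 by edgeR) and Htr1b by -0.72 (adjusted p = 0.586).

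Cells of the same class name were then set side by side in the 2 kinds of sham, with no test, since each class was named from its own clustering. In NF-like neurons (41 cells of 3 dye-labelled samples, from the Shox2 and Kcnv1 clusters, against 97 cells of 5 added libraries, all of the Shox2 cluster), Htr1d was 5.17 ± 4.76 against 28.5 ± 7.23 CPM and Htr1b 5.20 ± 2.76 against 0.577 ± 0.343. In the 22 dye-labelled sham cells of the Shox2 cluster alone Htr1d was 6.95 ± 3.36 CPM (4.71 to 10.8), still below the lowest added library at 20.8. Htr3a was 42.5 ± 37.9 CPM there, against 167 ± 34.1 CPM. The Htr1b gap did not hold in that cluster alone beyond its spread, at 4.80 ± 6.40 CPM. Htr4 was 4.80 CPM in the pooled dye-labelled NF-like cells, against 1.23 CPM in the added ones. In the Shox2 cluster alone it was 0.325 CPM (0 to 0.761), below the added mean, with ranges that overlap (0.448 to 3.05 added).

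The clusters called NP-like (19 cells of 3 samples against 77 cells of 7) were led by different genes, so their values stand side by side only. Htr3a was 263 ± 76.4 against 322 ± 61.0 CPM, with overlapping spread. Htr4 was 20.4 ± 5.94 CPM (16.7 to 27.3) against 78.2 ± 18.4 (61.1 to 108), and Htr3b went the other way, 41.8 ± 14.4 (29.3 to 57.6) against 9.81 ± 6.36 (4.02 to 22.8). The added cluster led by Rbp2 and Otof, which shared leading genes with the dye-labelled NP-like cluster, had 262 ± 18.5 CPM of Htr3a, 15.4 ± 7.90 of Htr3b and 29.4 ± 12.7 of Htr4 (n = 6). In SST-like neurons (33 cells of 3 against 26 of 6) Htr3a was 115 ± 64.4 (65.6 to 188) against 289 ± 39.5 CPM (243 to 347). The dye-labelled value pools both clusters of that name: in sham Htr3a was 6.18 ± 5.82 CPM in the Prg4 cluster (18 cells, n = 3) and 221 ± 26.3 in the Sst cluster (14 cells, n = 2; 202 to 239).

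**Figure D5:**
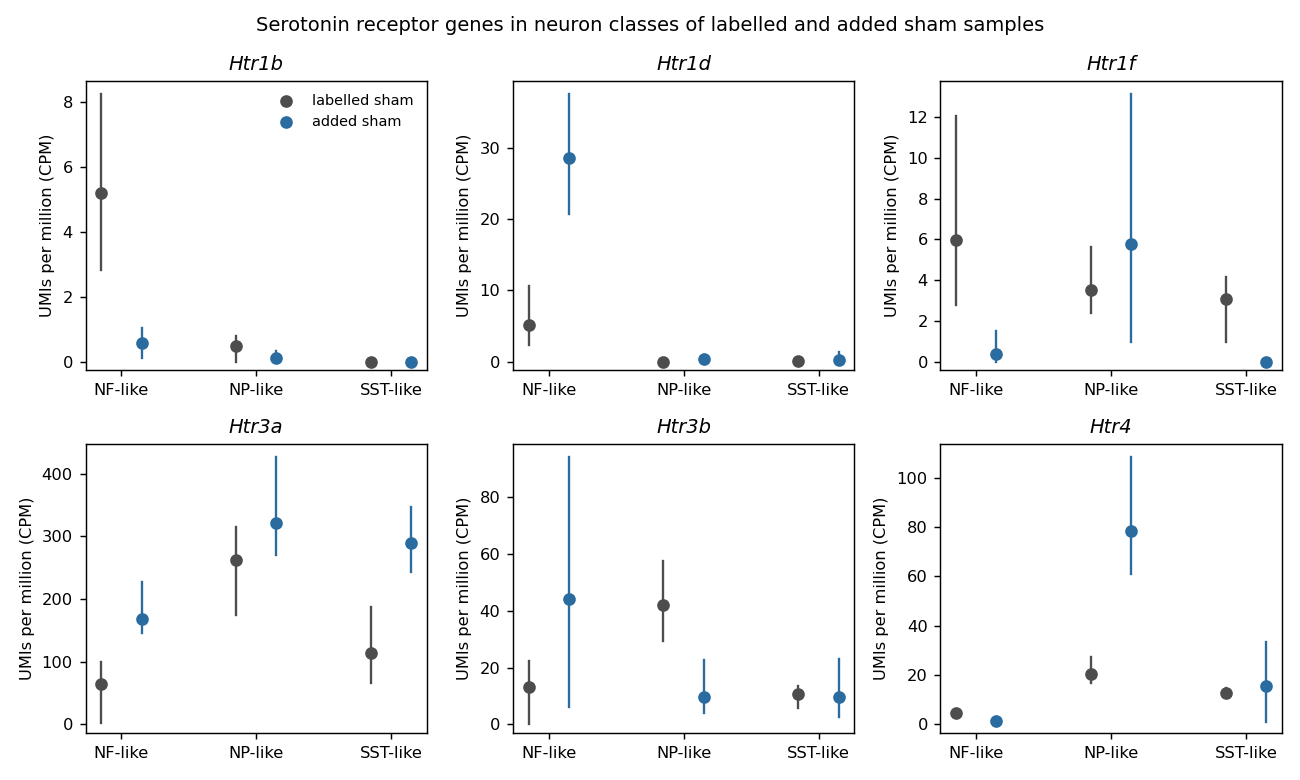
Mean level (points, CPM, linear axes, each gene on its own scale) and the lowest to highest sample (vertical lines) in NF-like, NP-like and SST-like neurons of dye-labelled sham (labelled sham, dark) and added sham (blue). The lines do not overlap in NF-like neurons for Htr1d and Htr3a, higher in added sham, and Htr1b, Htr1f and Htr4, lower. In NP-like neurons they do not overlap for Htr4, higher, and Htr3b, lower, and in SST-like neurons for Htr3a, higher, and Htr1f, lower (0 in added sham). Clusters of 1 class name differ in their leading genes. In the dye-labelled Shox2 cluster alone Htr1b (0.720 to 12.2 CPM) and Htr4 (0 to 0.761) overlapped the added NF-like range. In the dye-labelled Sst cluster alone Htr1f was 0 to 0.756 CPM.

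The other serotonin receptors were read from a fixed list of 8. Htr7 had no UMI in 1433 cells, which allows a share of up to 0.209%. In the SNC comparisons, where 0% of 14239 genes were called, 4 were tested and none passed. In the added against dye-labelled sham, where 40.6% of 15791 genes were called, 5 were tested and none passed. The largest difference was that of Htr2b, a receptor coupled to phospholipase C: its mean was 5.89 ± 4.30 CPM in sham. It stood at 21.8 ± 9.49 CPM 1 day after SNC, 21.9 ± 9.46 after 3 days and 7.62 ± 2.23 after 7 days, a log2 difference of +1.85 at 1 day (SE 0.539, adjusted p = 0.518 by edgeR). In PEP1-like neurons it stood at 23.7 ± 20.1 CPM and was seen in 54.8% of cells. Htr2a, the phospholipase C-coupled receptor of many nociceptors, stood at 28.1 ± 13.0 CPM in the Kcng1 cluster of the added set.

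Of 10 genes that make, carry or break down serotonin, none of the 6 tested passed in the SNC comparisons. Against dye-labelled sham the added set had higher Tph1, the rate-limiting enzyme of serotonin synthesis outside the brain (+2.41, adjusted p = 0.00123 by edgeR, 32.3 against 5.57 CPM), higher Slc18a1, a vesicle carrier for amines (+2.22, 0.029), and lower Maoa, which breaks serotonin down (-1.02, 0.00877), 3 of 9 tested. Of 21 genes for G proteins, adenylyl cyclases and receptor partners, 19 were tested. Of these Adcy5 (+1.92, adjusted p = 0.000102), Adcy6 (+2.08, 0.0165) and Gnai2 (+0.47, 0.0256) were higher in the added set. S100a10, whose product binds the Htr1b and Htr4 receptors, was lower (-0.75, 0.000578), which makes 4 of 19. None of the 18 tested passed in the SNC comparisons. Of 6 peptide genes and their receptors, 5 were tested, and 1, Adcyap1 (PACAP), was lower in the added set (-2.49, adjusted p = 0.00101 by edgeR), and none passed with SNC. In that comparison of sham sets 40.6% of all genes were called, and none of these 3 lists had a larger share. In the SNC comparisons 0% of all genes were called.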

How the data were processed

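Single DRG neurons had been sequenced with a modified Smart-seq2 method that captures 3′ ends and tags each transcript with a UMI. Per the labels, the authors aligned reads with STAR to Rnor_6.0, counted them per gene with featureCounts (Subread) and SAMtools, and collapsed them with UMI-tools. The count values deposited by the authors are whole UMI counts per gene and cell, without normalization. All files share 32881 genes. The limits for a cell were 500 genes, 1000 UMIs and less than 5% of UMIs on 13 mitochondrial genes. No doublet caller was run, since neurons were picked by hand.

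Labelled and added cells were clustered apart with Seurat 5.3.0. Counts were summed per DRG sample (libraries S-2 and S-3 as sample S) and compared with edgeR 4.0.16 (quasi-likelihood, TMM, filterByExpr, Benjamini-Hochberg, called at 0.05), the 4 dye-labelled groups in 1 fit and the added and dye-labelled sham in another, in R 4.3.3. Alternatives were DESeq2 1.42.0, its size factors, no filter, a term for the year of reverse transcription, thinning to 20000 UMIs, equal weight for each cell, other clustering resolutions, and each sample left out. Leaving out S1 and S2, the fit of samples from the earlier year alone, and the date of reverse transcription (from the study's supplement) as a block were chosen after seeing the data. Shares carry Wilson 95% intervals. Fits were tested on simulated data. Python 3.11.15, NumPy 2.4.6, pandas 2.3.3, SciPy 1.17.1 and matplotlib 3.10.9 were also used.

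The genes and lists were chosen with earlier results of these data known. The named genes are all 6 members, for each the 3 genes with the highest r over clusters, and of the lists those called and up to 4 others of high level. Htr2b was named after its values were seen, for its difference, as was Htr3a in PEP2-like neurons.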

Additional observations from a re-analysis of the deposited data

Results flagged for a closer look

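The level of Htr3b in library S7 of the added sham set, 64.3 CPM, stood apart from the other 6 added libraries, whose median with it was 13.8 CPM. Its gap to the nearest library was 0.580 of the whole range, past Dixon's limit of 0.568 for 7 samples. Of 24 groups of 4 to 7 samples tested in this way, 1 was flagged, and chance flags about 1 in 20.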

How the results depend on the processing

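No receptor passed the test between SNC and sham under any alternative. With a term for the year of reverse transcription, directions turned for Htr1b (0.44 at 1 day, 0.38 at 3 days and -0.034 at 7 days; in NF-like neurons 0.10 at 1 day and 0.0051 at 3 days), Htr1f at 1 day (0.71), Htr3a in NP-like neurons at 1 day (0.48), Htr3b at 3 days (-0.64) and Htr4 at 1 day (0.029). A block for the reverse transcription date was added once the data had been seen. It left few residual degrees of freedom, 1 and 3 days met sham only through samples at 7 days, and directions turned for Htr1b (1.02 at 1 day and 1.56 at 3 days), Htr1f at 1 day (0.81) and Htr3b at 3 days (-1.31). There Htr3a was -3.14, -2.30 and -2.31 at 1, 3 and 7 days, and Htr1d -5.24, -3.65 and -2.34. DESeq2 gave 0.023 for Htr1d at 7 days. With equal weight for each cell, Htr1b was 0.17 and 0.27 at 1 and 3 days, Htr1f -0.38 at 3 days, Htr3a 0.49 and 0.48 at 1 and 3 days and Htr4 0.051 at 7 days. Genes called at 1 day were 17 by DESeq2 and 1 with the year term or the date block, and at 3 days 3 with the date block and 1 by DESeq2, without a filter, with the year term or after thinning. Between the sham sets, leaving out S1 and S2 gave 2.23 for Htr1d (adjusted p = 0.0171) and 0.65 for Htr4 (adjusted p = 0.0577), and called genes ran from 4321 after thinning to 7237 by DESeq2. At resolution 0.3, NP-like levels were 85.2 CPM for Htr3a and 13.7 CPM for Htr3b. With at least 2 UMIs, dye-labelled shares of cells were 10.8% (Htr1b), 18.2% (Htr1f) and 32.4% (Htr4). After thinning they were 2.31% (Htr1b), 6.48% (Htr1f), 22.7% (Htr3a), 7.64% (Htr3b) and 12.1% (Htr4), and added shares were 3.34% (Htr1f), 92.7% (Htr3a), 19.7% (Htr3b) and 28.1% (Htr4). Thinned overlaps were 3.03% of Htr1b cells with Htr1f, 1.28% the other way and 22.5% of Htr3a cells with Htr3b. Leaving out 1 sample moved the differences over these ranges: Htr1b -0.41 to 0.14 at 1 day, -0.29 to 0.070 at 3 days, -0.13 to 0.36 at 7 days and -0.73 to 0.037 in NF-like neurons at 7 days. For Htr1d they were -2.18 to -0.59 at 1 day, -2.41 to -1.02 in NF-like neurons at 1 day, -0.95 to 0.64 at 3 days, -0.80 to 0.59 in NF-like neurons at 3 days, -1.29 to 1.21 at 7 days and -1.29 to 0.55 in NF-like neurons at 7 days. For Htr1f they were -0.55 to 0.027 at 7 days and -0.089 to 0.66 in PEP2-like neurons at 7 days. For Htr3a they were -0.37 to 0.045 in NP-like neurons at 1 day and -0.42 to 0.28 at 3 days. For Htr3b they were -1.28 to 0.39 at 1 day and -0.22 to 0.75 at 3 days, and for Htr4 -0.33 to 0.042 at 7 days. Genes called at 3 days ran from 0 to 1. Between the sham sets the ranges were 1.499 to 3.04 for Htr1d, -1.72 to -1.25 for Htr1f and 1.04 to 1.55 for Htr4, with 1 to 3 of the 6 receptors called, 1 without sham sample 10. Htr3a stayed called in all of these. The cause was not tested in any of these cases. No paired analysis was possible over replicate numbers because the labels give the groups none in common.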
